A study of Mus musculus with 21 samples.

Results

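*Tcf7*, *Lef1*, *Axin2*, *Ctnnb1*, *Satb1*, *Id2* and *Id3* were followed in CD4+ T cells that had met peptide antigen *in vivo*. The 7 genes were taken by name from the table of normalised values and matched by gene identifier to the table of 47643 counted genes. All 7 were present in both tables and all 7 passed the filter of at least 10 counts over the 21 libraries, which 15300 genes passed. The genes code for a T cell transcription factor pair (TCF-1, from *Tcf7*, and LEF-1), the protein they bind (β-catenin, from *Ctnnb1*), a gene widely used as a readout of that pathway (*Axin2*), the chromatin organiser SATB1, and the inhibitors ID2 and ID3.

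TCF-1 and LEF-1 are HMG box factors that are abundant in thymocytes and in naive and memory T cells, where they hold chromatin open at T cell genes and can act with β-catenin, as in Wnt signalling, or with Groucho/TLE corepressors. AXIN2 is a scaffold of the complex that marks β-catenin for destruction, and its gene is itself switched on by TCF/LEF and β-catenin in many tissues. SATB1 organises chromatin loops in thymocytes and T cells. ID2 and ID3 lack a DNA binding region and block E proteins, the basic helix-loop-helix factors that include E2A and HEB, by pairing with them. In T cells a higher ID2 is commonly linked with effector fates and a higher ID3 with naive and memory cells.

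The 21 libraries came from splenic CD4+ T cells of Tg4 Tiger *Nr4a3*-Tocky mice, 3 mice in each of 7 groups. Every animal, controls included, carried the Tg4 T cell receptor transgene for myelin basic protein (MBP) peptide, the *Nr4a3*-Tocky reporter, in which a Timer protein driven by *Nr4a3* matures from blue to red fluorescence, and an *Il10*-GFP reporter. Control mice were untreated, and the others received 0.8 or 80 μg of [4Y] MBP peptide under the skin without adjuvant and were taken at 4, 12 or 24 h. The Timer gate differed with time: the 4 h cells were Blue+Red- (new signal), those of the 12 h groups Blue+Red+ and the 24 h cells Blue-Red+ (signal ended). Time and gate therefore cannot be told apart, while doses were compared within a single gate. The gate of the control cells, and the ages of the mice, are not given in the sources used here, mice of both sexes were used, and the use of 1 receptor transgene and 1 peptide limits what the cells represent. Libraries held 2352800 to 6244279 counts each, and a floor of 3 counts corresponded to 1.28 CPM (counts scaled to the library total) in the smallest and 0.48 CPM in the largest. All 8 T cell markers were present in every group. Replicate 3 of the 0.8 μg group at 12 h stood apart from the other two over all genes, with a chi-square per degree of freedom of 14.8 and 14.4 against them and 3.35 between them, where other groups gave 3.47 to 9.49. Because these are bulk samples, fewer cells of a type and less RNA per cell cannot be told apart.

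The genes lie on 6 chromosomes of the mouse build GRCm38, and all are protein coding. *Tcf7* (ENSMUSG00000000782) spans 52252371 to 52283014 on the minus strand of chromosome 11 and *Axin2* (ENSMUSG00000000142) spans 108920349 to 108950783 on its plus strand. *Lef1* (ENSMUSG00000027985) spans 131110471 to 131224356 on the plus strand of chromosome 3, *Ctnnb1* (ENSMUSG00000006932) 120929216 to 120960507 on the plus strand of chromosome 9, and *Satb1* (ENSMUSG00000023927) 51736187 to 51833290 on the minus strand of chromosome 17. *Id2* (ENSMUSG00000020644) spans 25093799 to 25097140 on the minus strand of chromosome 12 and *Id3* (ENSMUSG00000007872) 136143497 to 136145755 on the plus strand of chromosome 4. *Lef1*, *Axin2*, *Ctnnb1* and *Satb1* share exon sequence with a gene on the opposite strand (*Gm43352*, *Gm11670*, *Ulk4* and *Gm6934*), and *Ctnnb1* and *Satb1* with one on the same strand (*Mir7090* and *Gm36931*). The strand setting of the counting is not given in the sources used here, so reads from such partners are not separated with certainty for these 4 genes.

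The 250 bases before the start site are shown for *Lef1* and *Axin2*, which moved together, and for *Id2* and *Id3*, which moved apart. Sequences are from RefSeq (GRCm38.p6), 5′ to 3′ on the strand of the gene, and all 7 genes matched by symbol. Where the table lists several start sites (4 for *Lef1*, 2 for *Tcf7*, 2 for *Ctnnb1* and 5 for *Satb1*), the one nearest the 5′ end of the GENCODE gene was taken. The windows of *Id2*, *Id3* and *Ctnnb1* lie inside the GENCODE spans given above, which begin further upstream than the RefSeq start. Capitals mark CTTTG, the core of the site that TCF/LEF factors bind, and CAGCTG, an E protein site, searched on both strands.
Lef1 (chr3:131110073-131110322, plus strand): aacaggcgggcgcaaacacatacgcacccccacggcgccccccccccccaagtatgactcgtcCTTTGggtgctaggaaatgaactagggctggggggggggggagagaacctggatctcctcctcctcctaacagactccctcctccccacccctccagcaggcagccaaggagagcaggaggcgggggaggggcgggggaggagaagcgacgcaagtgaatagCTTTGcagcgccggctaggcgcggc
Axin2 (chr11:108920099-108920348, plus strand): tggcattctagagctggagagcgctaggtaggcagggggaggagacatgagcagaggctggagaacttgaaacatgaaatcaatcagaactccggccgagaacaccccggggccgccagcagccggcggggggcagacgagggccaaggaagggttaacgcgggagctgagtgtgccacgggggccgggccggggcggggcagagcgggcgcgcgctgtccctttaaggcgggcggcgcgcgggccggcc
Id2 (chr12:25096093-25096342, minus strand): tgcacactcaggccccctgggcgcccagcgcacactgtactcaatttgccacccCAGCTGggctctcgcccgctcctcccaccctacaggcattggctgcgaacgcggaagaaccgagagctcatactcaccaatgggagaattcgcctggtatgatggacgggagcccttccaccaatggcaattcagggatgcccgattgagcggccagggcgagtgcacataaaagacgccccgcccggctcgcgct
Id3 (chr4:136143572-136143821, plus strand): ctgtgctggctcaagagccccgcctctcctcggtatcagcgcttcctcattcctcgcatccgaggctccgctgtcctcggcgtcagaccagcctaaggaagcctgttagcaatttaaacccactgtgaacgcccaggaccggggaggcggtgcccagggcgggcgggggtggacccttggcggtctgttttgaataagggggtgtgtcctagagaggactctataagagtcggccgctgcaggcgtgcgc
CTTTG was found in the window of 1 of the 7 genes, *Lef1*, at -187 and at -25 counted from the start site, and in 48.6% of all 32851 windows of this length. The longer form CTTTGAT was in 0 of the 7 and in 3.21% of all windows. CAGCTG was in 2 of the 7, at -196 in *Id2* and at -159 in *Tcf7*, against 13% of all windows. The Egr site GCGTGGGCG was in 0 of the 7 and 0.536% of all windows, and its variant GCGGGGGCG in 1 of the 7, *Tcf7*, and 2.57% of all windows. In the window of *Tcf7*, both matches follow an ATG and lie in an open reading frame that runs to the end of the window. They may thus be coding sequence and not sites upstream of the gene. All these matches describe the letters only and say nothing of whether a factor was bound.

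At 4 h, *Tcf7*, *Lef1* and *Axin2* had fallen below control with both doses, and *Tcf7* and *Lef1* further with 80 μg than with 0.8 μg. Normalised counts of *Tcf7* were 2507, 2514 and 2807 in the control mice, 625, 617 and 686 with 0.8 μg and 228, 278 and 229 with 80 μg. Those of *Lef1* were 2092, 2487 and 2434 in control, 545, 485 and 589 with 0.8 μg and 228, 221 and 273 with 80 μg. For both genes the 3 groups did not overlap, and the high dose was the lowest. The shrunken log2 fold change against control was -2.01 (SE 0.13, adjusted p = 1.99e-55) for *Tcf7* with 0.8 μg, 4.06-fold lower, and -3.40 (SE 0.13, adjusted p = 1.79e-142) with 80 μg, 10.6-fold lower. For *Lef1* it was -2.11 (SE 0.11, adjusted p = 4.26e-76), 4.32-fold lower, and -3.26 (SE 0.12, adjusted p = 4.96e-164), 9.69-fold lower (DESeq2 Wald test with Benjamini-Hochberg adjustment, n = 3 mice a group, here and below). Folds are from the unshrunken estimates and so lie slightly above those of the shrunken log2 values beside them.

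*Axin2* was read with few counts. Its normalised counts were 95.9, 83.2 and 98.5 in control, 7.07, 1.32 and 5.40 with 0.8 μg at 4 h and 3.47, 3.87 and 2.57 with 80 μg at 4 h. The control libraries held 244 *Axin2* counts in all, against 13 with 0.8 μg and 10 with 80 μg, and single libraries at 4 h held as few as 1 count. On the CPM scale, the control level was 21.1 times that with 0.8 μg (exact 95% counting interval 12.1 to 40.3) and 31.4 times that with 80 μg (16.8 to 66.3), intervals that cover counting error only. The shrunken log2 fold changes were -3.94 (SE 0.53, adjusted p = 8.30e-12) and -4.38 (SE 0.55, adjusted p = 2.96e-13). No difference between the doses was detectable at this depth (log2 fold change -0.44, SE 0.63, adjusted p = 0.779, 95% interval of the unshrunken value -2.01 to 0.93).

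*Satb1*, *Id2* and *Id3* took opposite directions with the 2 doses at 4 h. *Satb1* had normalised counts of 5940, 5966 and 6136 in control, 2182, 3368 and 2344 with 0.8 μg and 8778, 8854 and 10302 with 80 μg. *Id2* had 407, 436 and 431 in control, 181, 229 and 216 with 0.8 μg and 1079, 889 and 1074 with 80 μg. For both genes, control mice lay between the low and the high dose with no overlap. *Id3* ran the other way, with 115, 112 and 153 in control, 196, 225 and 190 with 0.8 μg and 42.8, 53.3 and 44.6 with 80 μg. With 0.8 μg, *Satb1* (-1.18, SE 0.19, adjusted p = 1.86e-09) and *Id2* (-1.02, SE 0.17, adjusted p = 3.48e-09) fell against control, the latter close to the fold threshold of 1 on the log2 scale, which it missed without replicate 1 of the 0.8 μg group (-0.92). *Id3* with 0.8 μg passed the adjusted p but not the fold threshold (0.68, SE 0.27, adjusted p = 0.0242). With 80 μg, *Id2* rose (1.25, SE 0.16, adjusted p = 1.01e-14) and *Id3* fell (-1.39, SE 0.29, adjusted p = 4.20e-06), and *Satb1* was above control by less than the fold threshold (0.62, SE 0.19, adjusted p = 0.00205).

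*Ctnnb1* stood apart from the other members. Its normalised counts ran from 504 to 598 in control, 671 to 786 with 0.8 μg and 649 to 725 with 80 μg at 4 h. It was above control by 0.44 (SE 0.11, adjusted p = 0.000155) and 0.34 (SE 0.11, adjusted p = 0.00368) on the log2 scale, both short of the fold threshold.

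A gene was called where its adjusted p was below 0.05 and its shrunken log2 fold change was above 1 or below -1. With 0.8 μg at 4 h, 0 of the 7 members were called higher and 5 lower against control, where 17.3% of the 13518 genes tested were called higher and 23.4% lower. With 80 μg at 4 h, 1 was called higher and 4 lower, against 18.4% and 25.1% of all genes tested. The controls of these comparisons are shared by all 6 groups of immunised mice.

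**Figure D1:**
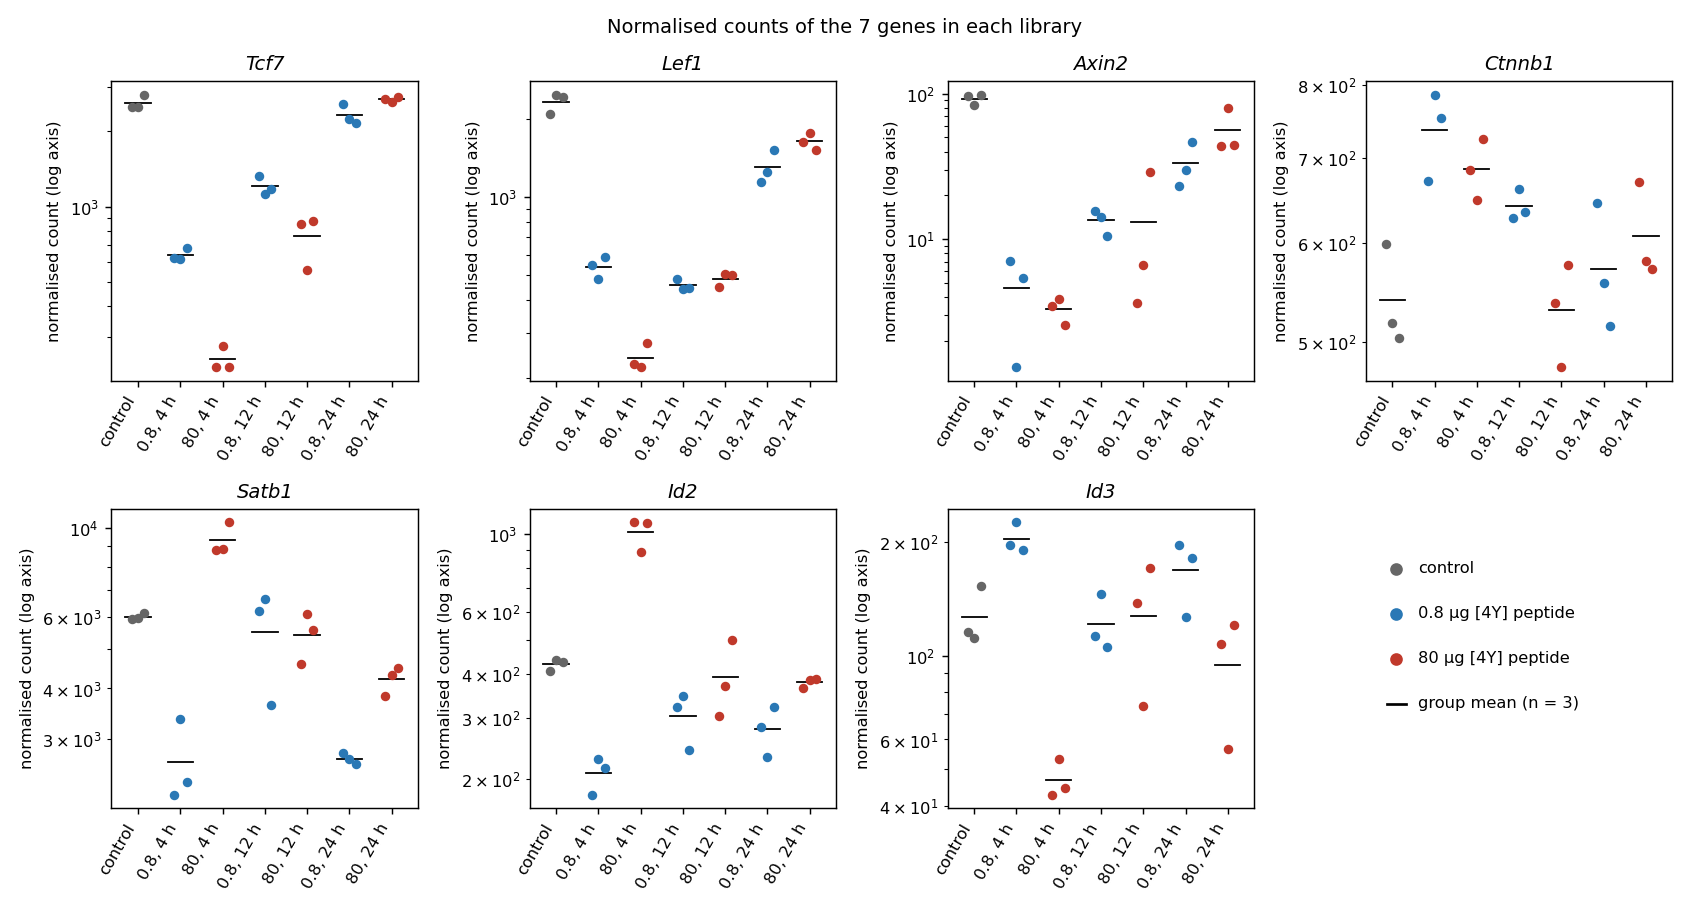
Normalised counts of each gene (log axis) in the 21 libraries, by group, with 1 point per mouse and a line at the group mean (n = 3). *Tcf7* and *Lef1* are lowest in the 80 μg group at 4 h, when *Axin2* overlaps between the doses. These 3 genes are higher at 24 h than at 4 or 12 h with both doses, while *Satb1*, *Id2* and *Id3* separate the doses at 4 h.

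Comparing the doses directly asks how antigen strength sets the level of each gene among cells at the same Timer stage. At 4 h, 80 μg against 0.8 μg left *Tcf7* 2.62-fold lower (log2 fold change -1.38, SE 0.14, adjusted p = 4.27e-22), *Lef1* 2.24-fold lower (-1.16, SE 0.12, adjusted p = 6.30e-19) and *Id3* 4.34-fold lower (-2.07, SE 0.28, adjusted p = 1.85e-11). *Satb1* was 3.54-fold higher (1.81, SE 0.19, adjusted p = 1.40e-19) and *Id2* 4.87-fold higher (2.27, SE 0.16, adjusted p = 1.92e-41). In each of these 5 genes the 3 mice of one dose did not overlap the 3 of the other. Summed markers of other cells also separated the doses at 4 h, with 63.6 to 82.0 normalised counts with 0.8 μg and 90.3 to 117 with 80 μg for 2 regulatory T cell genes, and 92.2 to 272 and 42.9 to 83.3 for 3 NK cell genes, nearly all of it *Eomes*. The NK receptors *Klrd1* and *Klrb1c* had means of at most 1.03 at this time. The part of these markers in the dose differences was not tested. *Ctnnb1* differed by -0.10 (SE 0.11, adjusted p = 0.683, unshrunken 95% interval -0.31 to 0.11). The count was thus 2 of 7 higher and 3 of 7 lower, where 3.12% of the 10848 genes tested were called higher and 2.74% lower, and all 5 were called again in every fit that left out 1 library.

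At 12 h, *Tcf7* alone passed the adjusted p between doses. *Tcf7* normalised counts were 1331, 1121 and 1174 with 0.8 μg and 851, 556 and 877 with 80 μg, without overlap (-0.67, SE 0.13, adjusted p = 9.08e-06, under the fold threshold). *Lef1*, in contrast, read 485, 442 and 447 with 0.8 μg and 449, 505 and 501 with 80 μg, and the difference was 0.08 (SE 0.12, adjusted p = 0.823, unshrunken 95% interval -0.15 to 0.31). *Ctnnb1* read 627 to 662 with 0.8 μg and 478 to 575 with 80 μg, without overlap, but missed the adjusted p (-0.28, SE 0.11, adjusted p = 0.117). *Axin2*, *Satb1*, *Id2* and *Id3* overlapped between doses, with adjusted p-values of 0.210 or more. 0 of 7 were called in either direction by DESeq2 or by edgeR's quasi-likelihood test, against 1.83% of 11145 genes higher and 0.960% lower in DESeq2, and 3 had an unadjusted p below 0.05. Summed markers of other cells also separated the doses at 12 h, with 384 to 433 normalised counts with 0.8 μg and 127 to 168 with 80 μg for 2 regulatory T cell genes, 140 to 181 and 45.7 to 75.8 for the CD8 chains *Cd8a* and *Cd8b1*, and 270 to 329 and 30.8 to 51.5 for 3 NK cell genes. Most of the regulatory T cell sum was *Ikzf2* (363 to 423 and 104 to 140). *Foxp3* overlapped between doses (3.52 to 20.3 and 18.3 to 28.3), with the higher mean at 80 μg. Most of the NK cell sum was *Eomes* (265 to 325 and 28.6 to 49.6), while the NK receptors *Klrd1* and *Klrb1c* had means of at most 1.81 at this time. The part of these genes in the *Tcf7* difference was not tested.

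At 24 h, *Lef1* (0.33, SE 0.11, adjusted p = 0.0418) and *Satb1* (0.65, SE 0.19, adjusted p = 0.0166) were higher with 80 μg and *Id3* lower (-0.81, SE 0.27, adjusted p = 0.0451), all under the fold threshold, so that 0 of 7 were called by DESeq2 or by edgeR, against 0.890% of 9663 genes higher and 0.673% lower in DESeq2, and 4 had an unadjusted p below 0.05. *Satb1* read 2765, 2683 and 2603 with 0.8 μg and 3828, 4330 and 4485 with 80 μg, and *Id3* read 197, 127 and 182 with 0.8 μg and 107, 56.7 and 120 with 80 μg, without overlap in either gene. Without replicate 3 of the 80 μg group at 24 h, *Id3* passed the fold threshold (-1.03, adjusted p = 0.0215). *Tcf7* and *Lef1*, lower with the high dose at 4 h, had estimates above 0 at 24 h, with *Tcf7* at 0.20 (SE 0.12, adjusted p = 0.411). *Id2* did not overlap between doses at 24 h but missed the adjusted p (0.44, SE 0.16, adjusted p = 0.0795), and *Ctnnb1* differed by 0.08 (SE 0.11, adjusted p = 0.784). Of the 2 regulatory T cell markers, *Ikzf2* also differed between the doses at 24 h, with 1159 to 1890 normalised counts with 0.8 μg and 524 to 614 with 80 μg, while *Foxp3* overlapped, with 48.5 to 193 and 79.5 to 103. The CD8 chains (120 to 153 with 0.8 μg and 81.1 to 113 with 80 μg) did not overlap between doses either. Nor did the NK cell sum (51.3 to 68.1 and 41.2 to 43.8). Within it, *Klrd1* was higher with 80 μg (7.23 to 10.7 and 29.6 to 38.2). *Eomes* (30.8 to 53.7 and 4.31 to 7.67) and *Klrb1c* (7.23 to 16.5 and 0 to 6.57) were lower. The summed 7 B cell markers other than *Ighm* were also lower with 80 μg (104 to 130 and 29.6 to 73.4). *Ighm* (990 to 1045 and 1422 to 1560) and the sum of the 8 T cell markers (9686 to 10344 and 11638 to 12077) were higher. Their part in these differences was not tested.

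**Figure D2:**
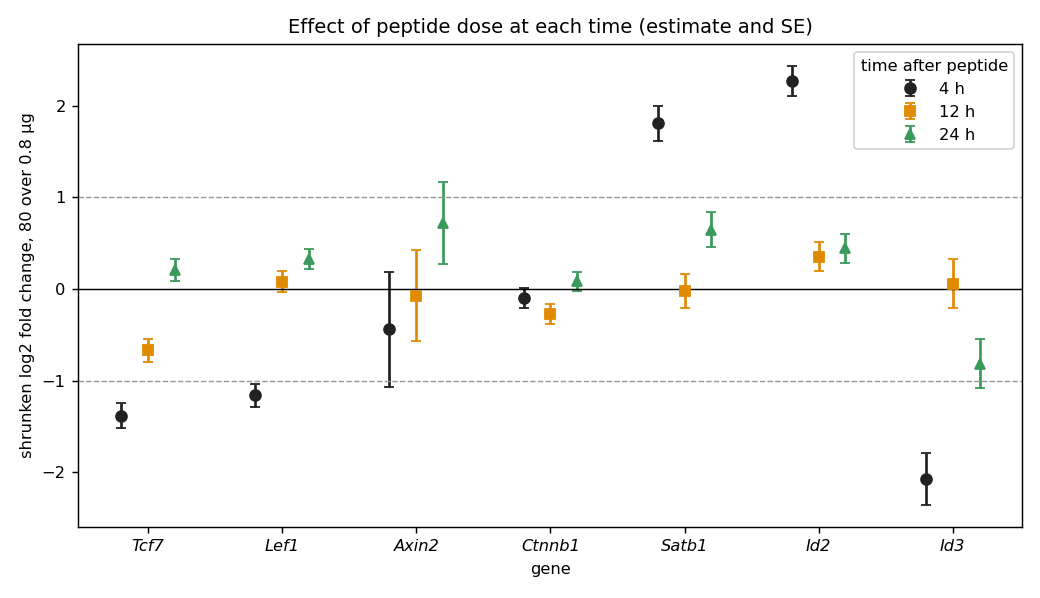
Shrunken log2 fold change of 80 over 0.8 μg for each gene at 4, 12 and 24 h, with its SE (n = 3 mice a group), and dashed lines at the fold threshold. The 4 h estimates of *Tcf7*, *Lef1* and *Id3* lie below -1 and those of *Satb1* and *Id2* above 1, and no 12 or 24 h estimate passes either line.

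Whether the dose effect changed with time was tested in 1 model over the 18 immunised mice, with the dose by time term dropped in a likelihood ratio test. It did for 5 of 7 members, where 10.4% of the 9958 genes tested passed. Adjusted p-values were 3.89e-17 for *Lef1*, 8.70e-16 for *Id2*, 1.38e-13 for *Tcf7*, 9.69e-08 for *Satb1* and 2.66e-05 for *Id3*. *Ctnnb1* (0.267) and *Axin2* (0.659) did not pass.

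The ratio of *Id2* to *Id3* counts moved with dose at 4 h. Within each library, which removes any scaling, the ratio of *Id2* to *Id3* counts was 3.53, 3.91 and 2.82 in control, 0.92, 1.02 and 1.14 with 0.8 μg at 4 h and 25.2, 16.7 and 24.1 with 80 μg at 4 h. The ranges of these 3 groups did not overlap. At 12 h the ratios were 2.30 to 2.85 with 0.8 μg and 2.20 to 5.04 with 80 μg, and at 24 h 1.44 to 1.83 with 0.8 μg and 3.22 to 6.77 with 80 μg, so the doses overlapped at 12 h and not at 24 h. The ratio compares counts from the 3′ ends of different genes and is read only as a change between groups.

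**Figure D3:**
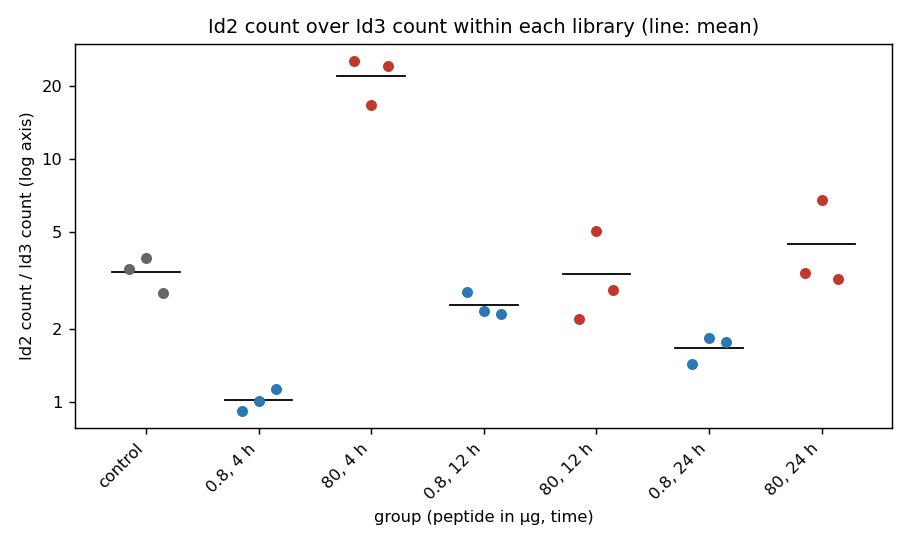
Ratio of *Id2* to *Id3* counts (log axis) in each library, by group, with a line at the mean of 3 mice. The 80 μg libraries at 4 h sit between 16.7 and 25.2 and the 0.8 μg libraries at 4 h between 0.92 and 1.14, on either side of control at 2.82 to 3.91.

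*Tcf7* and *Lef1* parted in how they came back. At 12 h, *Tcf7* was -1.11 (SE 0.12, adjusted p = 4.46e-18) with 0.8 μg and -1.77 (SE 0.12, adjusted p = 2.99e-44) with 80 μg against control, while *Lef1* was -2.34 (SE 0.11, adjusted p = 8.77e-94) and -2.26 (SE 0.11, adjusted p = 6.55e-89). By 24 h, *Tcf7* read 2587, 2233 and 2167 with 0.8 μg and 2688, 2614 and 2754 with 80 μg, overlapping control with either dose (-0.16, adjusted p = 0.319, unshrunken 95% interval -0.41 to 0.08, and 0.04, adjusted p = 0.826, -0.20 to 0.28). *Lef1* read 1149, 1247 and 1517 with 0.8 μg and 1635, 1768 and 1521 with 80 μg, below every control mouse (-0.84, SE 0.11, adjusted p = 2.09e-13, and -0.51, SE 0.11, adjusted p = 1.59e-05, both short of the fold threshold). The ratio of *Tcf7* to *Lef1* counts within a library was 1.01 to 1.20 in control, 0.84 to 1.27 over both doses at 4 h, 2.54 to 2.74 with 0.8 μg and 1.10 to 1.90 with 80 μg at 12 h, and 1.43 to 2.25 over both doses at 24 h. Every 24 h library was above every control library in this ratio.

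*Axin2* stayed low at 12 h, with normalised counts of 15.7, 14.3 and 10.6 with 0.8 μg and 3.65, 6.60 and 29.2 with 80 μg, against control by -2.62 (SE 0.47, adjusted p = 1.42e-07) and -2.69 (SE 0.47, adjusted p = 5.13e-08). Replicate 3 of the 80 μg group held most of that group's *Axin2* reads, 30 of 43. At 24 h *Axin2* read 23.4, 29.8 and 46.5 with 0.8 μg, below control (-1.41, SE 0.45, adjusted p = 0.00655), and 43.8, 79.5 and 44.4 with 80 μg, also below each control mouse but without passing the test (-0.69, SE 0.44, adjusted p = 0.213). The low dose call was lost without replicate 1 of that group (adjusted p = 0.0510). Between doses at 24 h the difference was 0.72 (SE 0.45, adjusted p = 0.441).

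*Satb1* with 0.8 μg at 24 h was 2.24-fold below control (-1.15, SE 0.19, adjusted p = 1.21e-08), close to its 4 h level, after 6215, 6662 and 3644 normalised counts at 12 h that overlapped control (adjusted p = 0.605). The low value is that of replicate 3, the library that stood apart. With 80 μg it went from 8778 to 10302 at 4 h through 4594, 6099 and 5574 at 12 h to 3828 to 4485 at 24 h, the last below control by less than the fold threshold (-0.51, SE 0.19, adjusted p = 0.0210). *Id2* with 0.8 μg remained below control at 12 h (-0.48, adjusted p = 0.00728) and at 24 h (-0.61, adjusted p = 0.000914), under the fold threshold, while with 80 μg its adjusted p-values were 0.542 and 0.441. *Id3* had adjusted p-values of 0.246 or more against control at 12 and 24 h with either dose. *Ctnnb1* passed the adjusted p once more, with 0.8 μg at 12 h (0.25, SE 0.11, adjusted p = 0.0476). The 2 regulatory T cell markers summed to 155 to 336 normalised counts in control. At 24 h their sum was 1208 to 2083 with 0.8 μg and 603 to 717 with 80 μg. Of this, *Ikzf2* had means of 196 in control and 1454 and 584 at 24 h. The part of these markers in the 24 h changes was not tested.

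Against control at 12 h, 0 of 7 members were called higher and 3 lower (*Tcf7*, *Lef1* and *Axin2*) with each dose, where 17.2% of 13518 genes were called higher and 20.5% lower with 0.8 μg and 17.8% of 13814 higher and 20.1% lower with 80 μg. At 24 h, 0 were called higher and 2 lower (*Axin2* and *Satb1*) with 0.8 μg, against 11.5% and 5.84% of 12628 genes, and 0 in either direction with 80 μg in DESeq2 and in edgeR, against 12.3% and 7.91% of 12925, with 2 at an unadjusted p below 0.05.

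**Figure D4:**
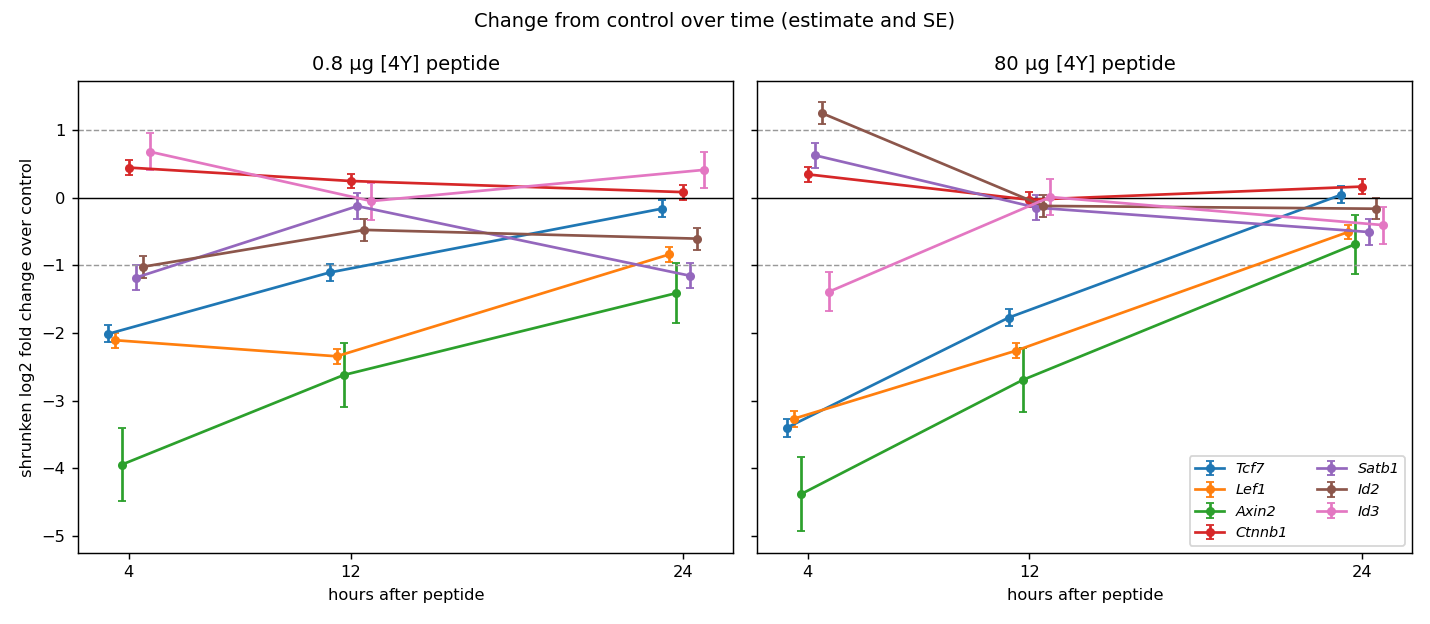
Shrunken log2 fold change over control, with its SE (n = 3 mice a group), at 4, 12 and 24 h after 0.8 μg (left) or 80 μg (right), with dashed lines at the fold threshold. *Tcf7* goes from -2.01 and -3.40 at 4 h to -0.16 and 0.04 at 24 h, and *Id2* and *Id3* lie on opposite sides of control between the doses at 4 h.

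The steps between times, in which the sort gate also changed, were tested within each dose. From 4 to 12 h with 0.8 μg, *Axin2* (1.32, SE 0.56, adjusted p = 0.0455) and *Satb1* (1.06, SE 0.19, adjusted p = 2.32e-07) were called higher and 0 of 7 lower, against 12.6% and 7.98% of 12331 genes. *Id2* (0.54, adjusted p = 0.00414) and *Id3* (-0.73, adjusted p = 0.0203) passed the adjusted p only, and *Lef1* (-0.24, adjusted p = 0.0960) and *Ctnnb1* (-0.20, adjusted p = 0.136) did not pass it. *Axin2* lost its call without replicate 2 or 3 at 4 h or replicate 1 or 2 at 12 h (0.94 to 1.30, adjusted p = 0.0828 to 0.187), and *Satb1* went under the fold threshold without replicate 1 or 3 at 4 h or replicate 1 or 2 at 12 h (0.90 to 0.98), and was at 1.29 without replicate 3 at 12 h. From 4 to 12 h with 80 μg, 4 of 7 were called higher (*Tcf7* 1.62, *Axin2* 1.69, *Id3* 1.40 and *Lef1* 1.00) and 1 lower (*Id2* -1.37, SE 0.16, adjusted p = 3.03e-17), against 15.7% and 9.10% of 12628 genes. *Satb1* (-0.77, adjusted p = 0.000189) and *Ctnnb1* (-0.37, adjusted p = 0.00186) passed the adjusted p but not the fold threshold. *Axin2* rested on replicate 3 at 12 h and fell to 0.59 (adjusted p = 0.489) without it, its call was also lost with only the 6 samples compared (adjusted p = 0.0773), and *Lef1*, at the threshold itself, went just under it without replicate 1 or 2 at 4 h or replicate 2 or 3 at 12 h (0.94 to 0.98) and after thinning to the smallest library (0.95).

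From 12 to 24 h with 0.8 μg, *Lef1* rose (1.504, SE 0.11, adjusted p = 2.64e-38), as did *Axin2* (1.21, SE 0.48, adjusted p = 0.0294), and *Satb1* fell (-1.03, SE 0.19, adjusted p = 3.22e-07), 2 of 7 higher and 1 lower, against 17.1% and 9.48% of 12925 genes. *Ctnnb1*, *Id2* and *Id3* had adjusted p-values of 0.160 or more. *Axin2* lost its call without replicate 2 or 3 at 12 h or replicate 3 at 24 h (adjusted p = 0.0644 to 0.173), with size factors from library totals (0.0605) and after thinning to the smallest library (0.0697), and *Satb1* went under the fold threshold without replicate 1 or 2 at 12 h or replicate 3 at 24 h (-0.999 to -0.87), and was at -1.26 without replicate 3 at 12 h. *Tcf7* gained 0.94 (SE 0.12, adjusted p = 3.28e-13) over this step and 0.91 (adjusted p = 2.19e-11) over the step before it, each just under the fold threshold, which it passed from 12 to 24 h without replicate 1 at 12 h (1.02), and from 4 to 12 h with size factors from library totals (1.06). With 80 μg, *Tcf7* (1.81, SE 0.12, adjusted p = 2.59e-46), *Lef1* (1.75, SE 0.11, adjusted p = 1.66e-53) and *Axin2* (2.00, SE 0.47, adjusted p = 8.97e-05) all rose, 3 of 7 higher and 0 lower, against 16.7% and 10.5% of 13221 genes, and the other 4 members had adjusted p-values of 0.109 or more.

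The summed level of the 8 T cell markers was below control at 4 and 12 h, as were *Tcf7*, *Lef1* and *Axin2*. With 0.8 μg the sum was lower at 12 h than at 4 h. The mean of *Lef1* was also lower at 12 h (458, against 540 at 4 h, with overlap), whereas *Tcf7* and *Axin2* were higher. The sum was 9938 to 10752 normalised counts in control, 6624 to 7398 with 0.8 μg and 5781 to 6390 with 80 μg at 4 h, 4274 to 4842 and 5837 to 5991 at 12 h, and 9686 to 10344 and 11638 to 12077 at 24 h. None of the 8 was at 0 in any group, and *Trac*, the constant part of the receptor α chain, did not share the 4 h fall, with a mean of 2321 in control and 2410 and 3027 with the low and the high dose. At 12 h *Trac* was below control, with means of 1031 and 1696.

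Of the B cell markers *Ighm*, and of the NK cell markers *Klrd1*, also fell and were higher again at 24 h. *Klrd1* read 52.6 to 83.2 normalised counts in control, 0 to 3.92 over both doses at 4 and 12 h, and 7.23 to 10.7 with 0.8 μg and 29.6 to 38.2 with 80 μg at 24 h. *Eomes*, another NK cell marker, went the other way, from a control mean of 4.21. Its means with 0.8 and 80 μg were 179 and 64.0 at 4 h and 305 and 40.7 at 12 h. At 24 h they were 39.2 and 6.45. *Klrb1c* had a control mean of 3.28. The summed level of 8 B cell markers was 1278 to 1394 normalised counts in control, 136 to 242 with 0.8 μg and 123 to 144 with 80 μg at 4 h, 128 to 289 over both doses at 12 h and 1106 to 1634 over both doses at 24 h. Most of this sum was *Ighm*, at 1111 to 1203 in control and 990 to 1560 at 24 h. The other 7 markers summed to 138 to 282 in control, 52.9 to 127 with 0.8 μg and 41.6 to 57.9 with 80 μg at 4 h, and 7.78 to 143 over both doses at 12 h. They did not return with 80 μg at 24 h, at 29.6 to 73.4, and were at 104 to 130 with 0.8 μg, and *Cd79a*, a defining chain of the B cell receptor, was at 0 in the 0.8 μg groups at 4 and 24 h and in the 80 μg group at 24 h and had a control mean of 4.28. The part of these T, B and NK cell markers in the changes of the 3 genes was not tested.

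Ordered by mean normalised count, *Tcf7* ran from 80 μg at 24 h, control and 0.8 μg at 24 h, neighbours that overlapped, through 0.8 μg at 12 h, then 80 μg at 12 h and 0.8 μg at 4 h, which overlapped, to 80 μg at 4 h. *Lef1* ran from control through 80 μg and 0.8 μg at 24 h, each apart from the next, to 0.8 μg at 4 h and both 12 h groups, which overlapped as neighbours, and then 80 μg at 4 h. All neighbours in the order of *Ctnnb1* overlapped. *Satb1* and *Id2* were both highest in the 80 μg group at 4 h and lowest in the 0.8 μg group at 4 h, and *Id3* was highest and lowest in the reverse of these groups. Over the 7 group means of log2 normalised count, which share the same libraries, Pearson's r was 0.93 for *Tcf7* with *Lef1*, 0.93 for *Tcf7* with *Axin2*, 0.94 for *Lef1* with *Axin2*, 0.89 for *Satb1* with *Id2* and -0.95 for *Id2* with *Id3*.

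Among 4699 genes that averaged 100 or more normalised counts, those whose 7 group means were most like *Tcf7* were *Glipr1* (Pearson's r = 0.997), *Nsg2* (0.997) and *Tlk1* (0.991), and among those most like *Lef1* were *Add3* (0.994) and *Dennd1c* (0.992). *Axin2* had *Crlf3* (0.998), *Ano6* (0.995) and *Leprotl1* (0.995), and *Ctnnb1* had *Zkscan1* (0.940), *Rpl9* (0.922) and *Kdm2b* (0.921). *Satb1* was matched least closely, by *Rpl35a* (0.865), *Rps7* (0.854) and *C230085N15Rik* (0.848). *Id2* had *Arap2* (0.932), *Rps3* (0.914) and *Malt1* (0.893), and *Id3* had *Eid1* (0.951), *Gpr174* (0.932) and *Jade2* (0.906). With 7 points, values this high describe the shape across groups only.

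**Figure D5:**
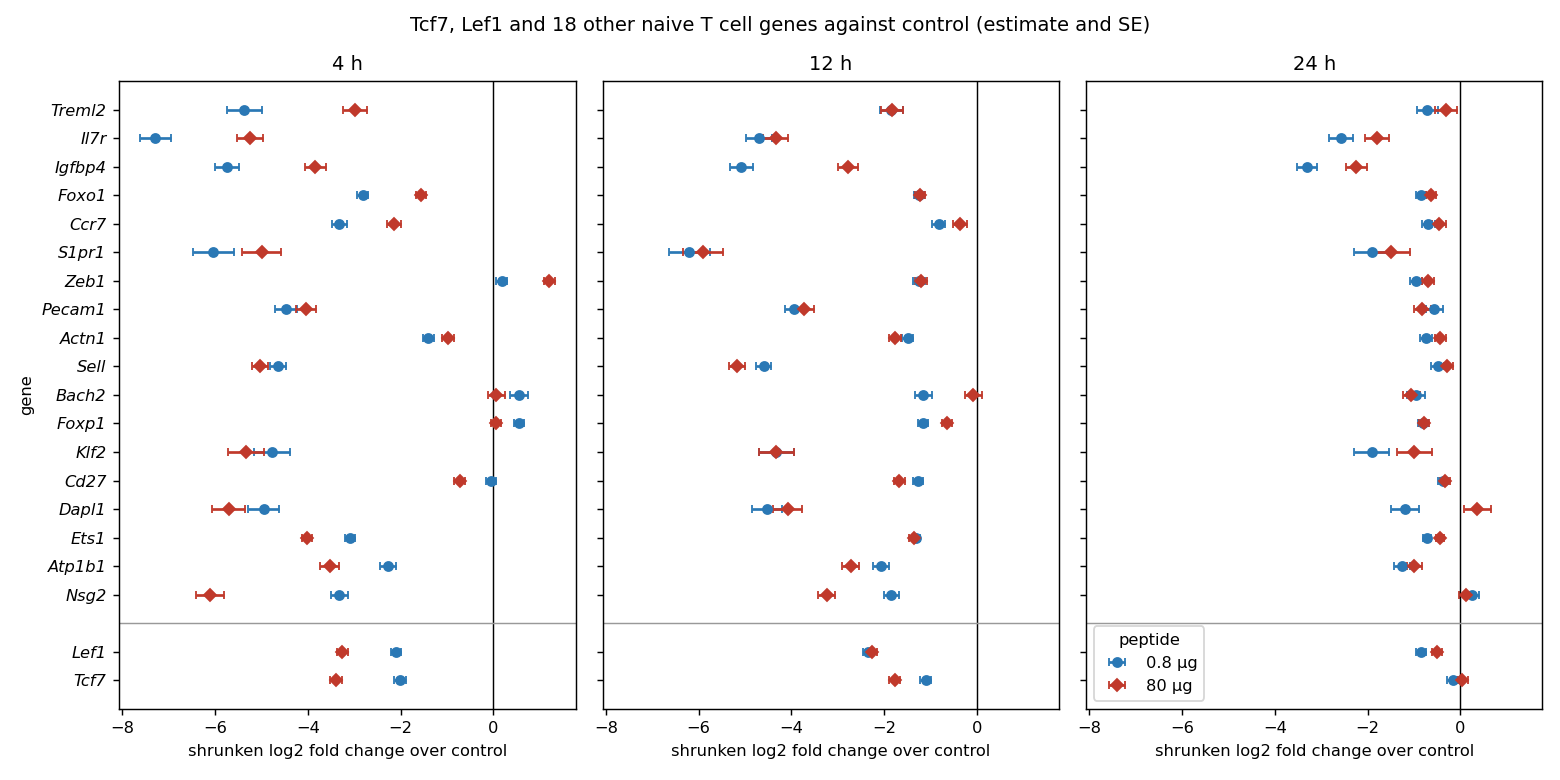
Shrunken log2 fold change over control, with its SE, of *Tcf7*, *Lef1* and 18 other naive T cell genes at 4, 12 and 24 h, for 0.8 μg (circles) and 80 μg (diamonds). Genes are ordered from bottom to top by the dose difference at 4 h, with *Nsg2* lower at the high dose and *Treml2*, *Il7r* and *Igfbp4* higher.

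Other genes that mark naive T cells fell with *Tcf7* and *Lef1*. Of 18, 14 were called lower and 0 higher with 0.8 μg at 4 h (median log2 fold change -3.33, against -0.13 over all genes tested) and 13 lower and 1 higher with 80 μg (-3.69, against -0.15), where 23.4% and 25.1% of all genes tested were called lower. The largest falls with 0.8 μg were in *Il7r*, the IL-7 receptor chain (-7.29, SE 0.33), *S1pr1*, the receptor for lymphoid egress (-6.05, SE 0.44), and *Igfbp4* (-5.75, SE 0.27), and with 80 μg in *Nsg2* (-6.11, SE 0.31), *Dapl1* (-5.71, SE 0.35) and *Klf2*, which drives homing receptor genes (-5.34, SE 0.39). *Zeb1*, a zinc finger repressor, was the 1 that rose (1.20, SE 0.12, adjusted p = 9.70e-23). At 12 h, 17 and 15 of the 18 were called lower with 0.8 and 80 μg (medians -1.84 and -2.28, against -0.11 over all genes tested with each dose), where 20.5% and 20.1% of all genes were. At 24 h, 6 were lower with 0.8 μg, led by *Igfbp4* (-3.31), *Il7r* (-2.57) and *Klf2* (-1.91), and 4 with 80 μg, led by *Igfbp4* (-2.24), *Il7r* (-1.80) and *S1pr1* (-1.49), when *Tcf7* overlapped control. Of all genes tested, 5.84% and 7.91% were called lower at 24 h.

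Within this list the dose did not act in one direction at 4 h. Where 3.12% of all genes tested were called higher and 2.74% lower, 6 of the 18 were called higher with 80 μg than with 0.8 μg, among them *Treml2* (2.38, SE 0.39, adjusted p = 8.81e-08), *Il7r* (2.04, SE 0.35, adjusted p = 1.43e-07) and *Igfbp4* (1.90, SE 0.28, adjusted p = 2.90e-10), and 2 were lower, *Nsg2* (-2.79, SE 0.32, adjusted p = 2.22e-15) and *Atp1b1*, a sodium pump subunit (-1.27, SE 0.21, adjusted p = 7.53e-08). *Il7r* averaged 64.5 ± 11.4 normalised counts with 80 μg and 14.5 ± 3.44 with 0.8 μg (SD, n = 3) against 2627 ± 594 in control, and *Nsg2* averaged 8.19 ± 3.67 and 61.5 ± 19.7 against 629 ± 74.1. At 12 h, *Igfbp4* (2.30) and *Bach2*, a repressor of effector genes (1.08), were higher and *Nsg2* lower (-1.39) with 80 μg. At 24 h, *Dapl1* (1.56, SE 0.29, adjusted p = 1.38e-05) and *Igfbp4* (1.07, SE 0.23, adjusted p = 0.000205) were higher. From 12 to 24 h, 9 of the 18 rose with 0.8 μg and 11 with 80 μg, and 0 fell, against 17.1% and 16.7% of all genes called higher and 9.48% and 10.5% lower.

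Genes of the β-catenin pathway around *Ctnnb1* and *Axin2* were counted next. Of 15 genes tested in the destruction complex and its regulators, 2 were called higher and 2 lower with 0.8 μg at 4 h against control, and 2 higher and 3 lower with 80 μg, near the shares of all genes (17.3% and 23.4%, and 18.4% and 25.1%). *Gsk3b*, the kinase that marks β-catenin, fell (-1.86, SE 0.11, and with 80 μg -2.27, SE 0.11), with 1082 ± 49.6 normalised counts in control, 297 ± 44.1 with 0.8 μg and 224 ± 19.3 with 80 μg (SD, n = 3). *Csnk1d*, a casein kinase (1.07 and 1.13), and *Fbxw11*, a ubiquitin ligase subunit that binds marked β-catenin (1.06 and 1.34), rose with both doses. None of this list was called between the doses. Among Wnt receptors and transducers, 11 of 20 passed the count filter and 9 were tested against control at 4 h. With each dose 0 of the 9 were called higher and 1 lower, under the shares of all genes given above. The 1 called was *Wls*, which carries Wnt proteins to the cell surface. *Wls* went from 50.7 ± 6.92 normalised counts in control to 6.86 ± 2.47 with 0.8 μg and 1.85 ± 1.37 with 80 μg (-2.72, SE 0.50, and -4.13, SE 0.58), and was back at 68.0 ± 45.5 and 35.6 ± 7.64 by 24 h. Of 5 other genes tested that are used elsewhere as Wnt readouts, 2 were called higher and 1 lower with 0.8 μg at 4 h, and 1 higher and 1 lower with 80 μg. *Myc* rose (4.06, SE 0.23, and 4.43, SE 0.23), *Rnf43*, a ligase that removes Wnt receptors, fell as *Axin2* did (-2.59, SE 0.72, adjusted p = 0.00173, and -2.27, SE 0.70, adjusted p = 0.00337) from a control mean of 16.9 normalised counts, *Tnfrsf19* rose with 0.8 μg (2.39, SE 0.66, adjusted p = 0.00114), and *Znrf3*, a relative of *Rnf43*, was lower at 24 h with both doses (-1.66, SE 0.28, and -1.72, SE 0.28).

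Among partners of TCF-1 and LEF-1, the calls at 4 h were read against the same shares. Of 16 TCF/LEF relatives, coactivators and TLE corepressors tested at 4 h against control, 3 were called higher and 5 lower with 0.8 μg, and 3 higher and 7 lower with 80 μg, where all genes gave 17.3% and 23.4%, and 18.4% and 25.1%. The counts with 0.8 μg are near these shares. *Aes*, the short member of the Groucho family, fell (-2.82, SE 0.17, and -3.33, SE 0.17), as did *Bcl9l*, a β-catenin coactivator (-2.39, SE 0.17, and -2.32, SE 0.17), while *Tle1*, a corepressor (1.75, SE 0.30, and 1.62, SE 0.30), and *Hdac2*, a histone deacetylase (1.33, SE 0.11, and 1.41, SE 0.11), rose. *Tle4*, another corepressor, was the 1 gene called between doses of the 13 tested at 4 h, where 2.74% of all genes were called lower and 3.12% higher (-1.44, SE 0.17, adjusted p = 2.36e-15), with 116 ± 28.5 normalised counts against 318 ± 32.1 with 0.8 μg and 561 ± 22.9 in control (SD, n = 3).

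Of 5 E protein and related genes that passed the count filter, 4 were tested between doses at 4 and 12 h and 3 at 24 h, and none was called. Of all genes tested, 3.12% were higher and 2.74% lower at 4 h. The shares were 1.83% and 0.960% at 12 h, and 0.890% and 0.673% at 24 h. Against control at 4 h, *Id1*, another inhibitor of E proteins, was the 1 gene of the 5 called, higher with 0.8 μg (2.99, SE 0.69, adjusted p = 0.000106) and with 80 μg (2.37, SE 0.69, adjusted p = 0.00242), from a control mean of 4.44 normalised counts. A count of 1 in 5 higher is near the share of all genes tested, 17.3% and 18.4%. Of all genes, 23.4% and 25.1% were called lower. *Tcf3*, which codes for E2A, averaged 82.1 ± 4.09 normalised counts with 80 μg and 137 ± 36.5 with 0.8 μg at 4 h (SD, n = 3, log2 fold change -0.74, SE 0.23, adjusted p = 0.0126, under the fold threshold). *Tcf12*, which codes for HEB, averaged 497 ± 19.1 and 582 ± 58.3 (-0.22, adjusted p = 0.157).

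Of 10 genes tested whose expression is reported to depend on TCF-1 or LEF-1 in T cells, 3 were called higher and 3 lower with 80 μg than with 0.8 μg at 4 h, against 3.12% and 2.74% of all genes tested. *Prdm1*, which codes for the repressor BLIMP-1, was higher (2.86, SE 0.55, adjusted p = 2.34e-05), as were *Il6st*, the shared chain of IL-6 family receptors (1.66, SE 0.11, adjusted p = 3.88e-48), and *Foxp3*, the regulatory T cell factor (1.89, SE 0.58, adjusted p = 0.0118, with a mean of 17.8 normalised counts at most in these groups). *Cd4* (-1.93, SE 0.14, adjusted p = 8.02e-39), *Gata3* (-1.59, SE 0.15, adjusted p = 1.36e-22) and *Eomes* (-1.46, SE 0.33, adjusted p = 0.000231) were lower, although *Eomes* was above control with both doses (3.50 with 80 μg and 4.96 with 0.8 μg). The opposite dose effects in *Prdm1* (3.20, SE 0.43) and *Eomes* (-2.84, SE 0.33) were present at 12 h and at 24 h (1.36, SE 0.41, and -2.47, SE 0.42). *Bcl11b*, a factor that keeps T cell identity, fell at 4 h with both doses (-3.01, SE 0.13, and -2.69, SE 0.13). In every list above, 0 called genes changed sign under the edgeR fit, under size factors from library totals or in the deposited normalised values.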

How the data were processed

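Splenic CD4+ T cells of 21 mice, 3 in each of 7 groups, were profiled by QuantSeq 3′ mRNA sequencing. The deposited table of raw counts per gene was made by the authors, who merged the reads of each library, trimmed them, aligned them with STAR 2.5.2a to GRCm38 (mm10) and counted them with HTSeq. The deposited log2 values are the authors' regularised log (rlog) transform from DESeq2 and cover 15249 genes. Neither the annotation release nor the strand setting is given in the sources used here, nor whether molecular identifiers were used. A 3′ count is 1 read near the end of a transcript, so levels were not compared between genes.

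Counts were fitted as deposited with DESeq2 1.42.0 (R 4.3.3), in 1 model over the 21 libraries with a coefficient for each group, after a filter of at least 10 counts over all libraries. Comparisons used the Wald test with Benjamini-Hochberg adjustment over all genes tested and shrunken log2 fold changes (folds are from the unshrunken ones), and a gene was called at an adjusted p below 0.05 with a shrunken log2 fold change above 1 or below -1. The dose by time term was tested by likelihood ratio in the 18 immunised mice. Normalised counts are counts divided by DESeq2 size factors, and SDs are over 3 mice. Intervals are at 95% and cover counting error or the fit only.

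The 7 genes and the gene lists were chosen with earlier results of these data known. All 7 are given in every comparison between doses or times, some as a range of adjusted p. From each list, up to 3 genes each way were named by size of change from the called genes averaging 20 or more normalised counts (*Rnf43*, *Tnfrsf19* and *Id1*, below this, and *Tcf3* and *Tcf12*, not called, were added after their values were seen), and the 3 genes most like each member by Pearson's r of the 7 group means of log2(normalised count + 1) over genes averaging 100 or more. A gene named by this rule for *Lef1* is not reported here. Gene positions are from GENCODE vM21 (GRCm38). Fits were tested on simulated counts before use. Alternatives were edgeR 4.0.16, limma 3.58.1 on the rlog values, other size factors, filters and thresholds, only the libraries compared, thinning to 2352800 counts, a replicate block and leaving out each library. No library was excluded, and no pair of replicates agreed within sampling noise.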

Additional observations from a re-analysis of the deposited data

Results flagged for a closer look

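The effect of 80 against 0.8 μg changed between times in 5 of the 7 genes, by the likelihood ratio test of the dose by time term in DESeq2 over 18 mice (3 in each of 6 groups). The adjusted p was 3.89e-17 for *Lef1*, whose shrunken log2 dose difference was -1.16 at 4 h, 0.08 at 12 h and 0.33 at 24 h. For *Id2* it was 8.70e-16, with differences of 2.27, 0.35 and 0.44. The value for *Tcf7* was 1.38e-13, with differences of -1.38, -0.67 and 0.20. In *Satb1* it was 9.69e-08, with 1.81, -0.02 and 0.65, and in *Id3* 2.66e-05, with -2.07, 0.06 and -0.81. The sort gate changed with time in both doses, so time and gate cannot be told apart in these values. No group had more than 3 libraries, so single libraries were not tested as outliers.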

How the results depend on the processing

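The count of members called was within 1.5 times the reported one for 80 against 0.8 μg at 4 h, for 80 μg at 4 and 12 h and 0.8 μg at 4 h against control, for 80 μg from 12 to 24 h and for the dose by time term (5 of 7) under every alternative run. With the adjusted p alone, counts became 1 (dose at 12 h), 3 (dose at 24 h), 5 (0.8 μg at 12 h against control), 4 (0.8 μg at 24 h), 2 (80 μg at 24 h) and 5 (0.8 μg, 12 against 4 h). For 0.8 μg from 4 to 12 h, using only the 6 samples compared gave 1 and limma on the rlog values 1, against 2 reported. Limma also gave 1 in place of 3 for 0.8 μg from 12 to 24 h and 3 in place of 5 for 80 μg from 4 to 12 h. Leaving out 1 library at a time gave 0 to 1 called for dose at 24 h, 1 to 2 for 0.8 μg at 24 h against control, 4 to 5 for 0.8 μg at 4 h against control, 0 to 2 for 0.8 μg from 4 to 12 h, 1 to 3 for 0.8 μg from 12 to 24 h and 3 to 5 for 80 μg from 4 to 12 h. No result changed sign while called. Causes of these changes were not tested. Scaling by library totals shifted the median of all genes by up to -0.23 on the log2 scale (80 μg at 24 h against control), and edgeR's TMM by at most 0.035.

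Replicate numbers showed no pairing of the mice that held in all comparisons. Same-numbered libraries correlated between -0.15 and 0.22 in their deviations, with 10 of 39 pairs over 0.1 and 13 best with their own number. For 80 μg from 4 to 12 h, every replicate was best with its own number (0.15, 0.08 and 0.13). Between doses at 24 h none was (-0.07, 0.07 and -0.10). A pairing limited to some groups cannot be told from these values. With the replicate block, 2 members were called for 0.8 μg from 12 to 24 h in place of 3 (*Axin2* 1.19, adjusted p = 0.0502), and the other counts were as reported. Depth limited *Axin2* most, with 1 to 7 counts per library at 4 h.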
